A study of Homo sapiens with 4 samples.

Results

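The bands described here are 4 stretches of the human genome, on GRCh37: 63.5 to 68.5 Mb of chromosome 11 (11q), 120 to 125 Mb of chromosome 12 (12q), 0.3 to 5 Mb of chromosome 16 (16p) and 72.5 to 81.2 Mb of chromosome 17 (17q). They cover 23.4 Mb. Members are regions of accessible DNA with their midpoint in a band. They were selected on the authors' own fold and p-value of drug over control, which put them on the list of at least 1 of 3 anthracyclines, and the bands were chosen by the number of listed regions per drug. There are 1777 members among 100205 listed regions, with 332 in the 11q band, 288 in the 12q band, 429 in the 16p band and 728 in the 17q band. The remainder of the same 4 chromosomes holds 13215 listed regions.

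K562, an established line from a human chronic myelogenous leukaemia, was profiled by ATAC-seq, in which a transposase cuts open DNA and leaves sequencing adapters there. Cells had 4 h of doxorubicin at 10 µM (Doxo), of its N,N-dimethyl form at 10 µM (diMe-Doxo) or of aclarubicin at 20 µM (Acla), or had no drug (control). Each drug has 1 list, which gives values for 2 libraries of treated cells and for 2 of control cells, and the control libraries are the same in all 3 lists. Whether the libraries of a group were separate cultures is not stated, so every p-value below measures the spread between these libraries, which may be technical.

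Anthracyclines slide between the base pairs of DNA. Doxorubicin also traps topoisomerase II on cut DNA, which leaves double-strand breaks, and it displaces histones. The dimethyl form carries methyl groups on the amine of its sugar and aclarubicin a longer sugar chain, and both are known to displace histones with few or no breaks. Bands of the kind studied here are rich in genes and in GC pairs, replicate early and are held in open chromatin in most cell types.

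The gene-rich part of that description could be checked only by gene order. The outermost genes of a gene list prepared for each band were looked up in the RefSeq table of GRCh38.p14. The protein-coding genes from the first to the last of them were counted. There were 136 from NRXN2 to LRP5 (11q), 53 from RPLP0 to HIP1R (12q), 177 from AXIN1 to UBN1 (16p) and 145 from GRB2 to FOXK2 (17q). These 511 genes are 11.8% of the 4348 on the 4 chromosomes, while the bands are 5.54% of the length with listed regions. The pooled excess was uneven. Of its own chromosome, 11q held 10.45% of the genes on 3.745% of the length and 16p 20.73% on 5.875%. The shares were closer for 12q, at 5.18% on 3.85%, and for 17q, at 12.4% on 10.98%. The stretches between these genes are shorter than the bands, so the counts leave out genes toward the band ends and the bands were not ranked by them. Base composition was not measured. No genome or gene annotation of the lists' own build was used, so the regions are given by position, without the gene they lie in and without their sequence.

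The control libraries differed from each other inside the bands. Summed over the members, control library 2 held 11456 reads and control library 1 held 5153, a ratio of 2.22. In the remainder of the 4 chromosomes the ratio was 1.15, and over all listed regions it was 0.988. Among the bands it ran from 1.41 in 12q to 3.39 in 16p, with 1.97 in 11q and 2.31 in 17q. The remainders differed as well, with 1.01 for chromosome 11, 0.952 for 12, 1.45 for 16 and 1.70 for 17. Each band was thus above the remainder of its own chromosome. The remainders of chromosomes 16 and 17 were nonetheless above the 12q band, so a raised ratio is not particular to the bands. Of 24 windows of 1 Mb that tile the bands, control library 2 held more reads than library 1 in 23, against 196 of 385 windows with at least 5 listed regions in the remainder. The ratio of single windows ran from 0.971 to 4.5 in the bands and further, from 0.318 to 7.5, in the remainder. Acla library 2 was also relatively high in the bands, with 1.15 times the reads of Acla library 1 there and 0.832 times in the remainder. The Doxo libraries had ratios of 1.09 in both places and the diMe-Doxo libraries 0.817 and 0.822. The part of these library differences in the authors' calls was not tested. The numbers of listed regions, their densities and the share of reads are therefore also given for the lowest control level. There neither control library had a peak or more than 1 read, a setting chosen after the values had been seen. Counts by window, gaps, widths, folds and the tests of drug against drug are not given at that level.

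**Figure D1:**
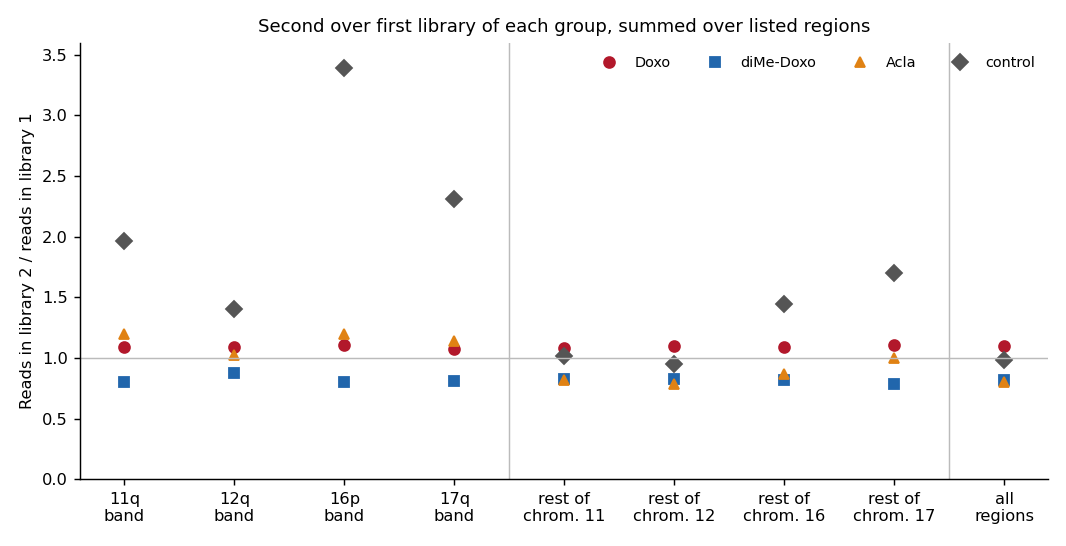
Reads in the second library of each group divided by reads in the first, summed over listed regions, for each band, for the remainder of each band's chromosome and for all listed regions. Control library 2 reached 3.39 times library 1 in the 16p band, while the Doxo and diMe-Doxo ratios hardly moved between places.

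Which drugs the members were gained with was asked first. The lists and the choice of bands fix much of this pattern, so it is given as a description with no test. Of the 1777 members, 1674 (94.2%) were in the Doxo list, 550 (31.0%) in the diMe-Doxo list and 628 (35.3%) in the Acla list. Over all 100205 listed regions those shares were 66.6%, 52.7% and 61.2%, and in the remainder of the 4 chromosomes 70.1%, 49.9% and 58.9%. Here a region counts as gained with a drug if it is on that drug's list. A gain under the list's limits cannot be told from none, since a list holds no values for other regions. By this count 1088 members were gained with Doxo alone, 440 with all 3 drugs, 114 with Doxo and Acla, and 32 with Doxo and diMe-Doxo. A further 103 members were not in the Doxo list, of which 49 were gained with diMe-Doxo and Acla, 29 with diMe-Doxo alone and 25 with Acla alone. Members gained with Doxo alone made up 61.2% of all members, against 32.9% in the remainder. Regions gained with both diMe-Doxo and Acla but not with Doxo made up 2.76% of members, against 13.2% in the remainder.

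The bands were not alike in this. For each diMe-Doxo region there were 4.01 Doxo regions in the 11q band and 1.05 in the remainder of chromosome 11. The values were 4.06 and 1.37 for 12q, and 3.14 and 2.05 for 16p. In the 17q band the ratio was 2.46, near the 2.40 of the remainder of chromosome 17. The 17q band thus differed from its chromosome in how many regions it held, while its mix of drugs was close to that of the chromosome.

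Per Mb, the bands held 71.5 Doxo regions, against 23.2 in the remainder, which is 3.08 times as many. The diMe-Doxo density was 23.5 per Mb against 16.5, or 1.42 times, and the Acla density 26.8 against 19.5, or 1.38 times. In the 11q band the diMe-Doxo and Acla densities were below those of the remainder of chromosome 11, at 0.612 and 0.615 times, while the Doxo density was 2.35 times as high. In the 12q band Doxo was at 3.08 times, diMe-Doxo at 1.04 times and Acla at 0.654 times the remainder of chromosome 12. In the 16p band Doxo was at 3.16 times, diMe-Doxo at 2.07 times and Acla at 1.83 times. In the 17q band all 3 drugs were raised alike, at 3.75, 3.66 and 3.72 times. Doxo regions also lay closer together, with a median gap to the next of 4.91 kb in the bands and 10.7 kb in the remainder. For diMe-Doxo the gaps were 12.3 and 15.9 kb, and for Acla 12.2 and 14.4 kb.

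**Figure D2:**
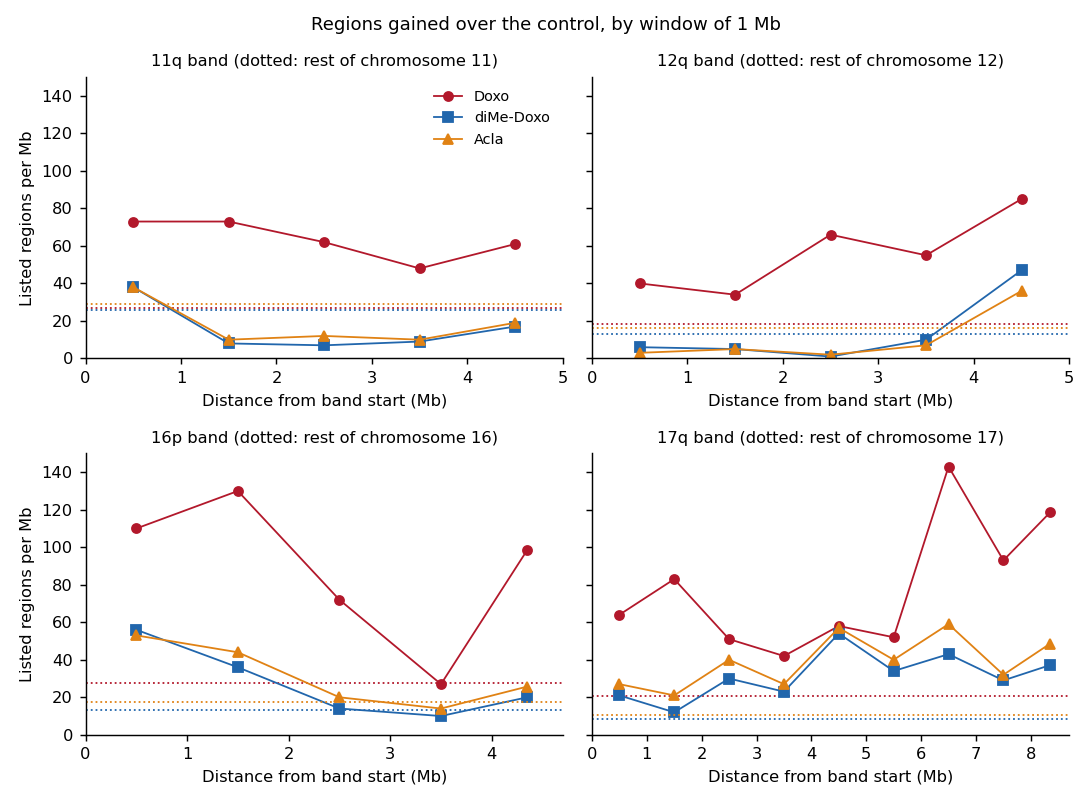
Listed regions per Mb (vertical axis) in windows of 1 Mb along each band (horizontal axis, distance from the band's start), with the last windows of 16p and 17q 0.7 Mb long. Points are Doxo, diMe-Doxo and Acla lists and dotted lines the density in the remainder of the same chromosome. Doxo was highest in each of the 24 windows, and the 3 drugs nearly met in 1 window of 17q, with 58, 54 and 57 regions.

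Along the bands the drugs followed different courses. All 24 windows held more Doxo than diMe-Doxo regions, as did 253 of 401 windows in the remainder (63.1%). More than 3 times as many were held by 16 of 24 band windows, against 93 of 401 in the remainder (23.2%). The chromosomes differed in this. It was 80% of windows in 11q and 12q, against 9.30% and 20% in the remainders of chromosomes 11 and 12. For 16p it was 60% against 39.5%, and for 17q 55.6% against 36.6%. Windows with more Doxo than diMe-Doxo regions were 42.6%, 60%, 80.3% and 87.3% of the remainders of chromosomes 11, 12, 16 and 17. The highest ratio of Doxo to diMe-Doxo regions was at 122 to 123 Mb of chromosome 12, with 66 Doxo, 1 diMe-Doxo and 2 Acla regions. The next window, at 123 to 124 Mb, held 55, 10 and 7, and the one after it, at 124 to 125 Mb, held 85, 47 and 36. On chromosome 11 the window at 63.5 to 64.5 Mb had 73 Doxo regions, 38 diMe-Doxo regions and 38 Acla regions. The one at 64.5 to 65.5 Mb had 73, 8 and 10. So from the first of these windows to the next the Doxo count stayed the same and the counts of the other drugs dropped. Control reads changed as well. The median of control library 2 at listed regions was 2 in the first and 7 in the next, while that of library 1 was 1 in both. The part of this in the counts was not tested. The windows with the most members were 78.5 to 79.5 Mb of chromosome 17 (143 Doxo, 43 diMe-Doxo and 59 Acla regions) and 1.3 to 2.3 Mb of chromosome 16 (130, 36 and 44). The lowest ratio, 1.07, was at 76.5 to 77.5 Mb of chromosome 17, with 58, 54 and 57.

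The edges of the bands were set by round positions, and the counts just inside and just outside them varied. At the 11q start, the first 0.5 Mb inside held 37 Doxo regions and the 0.5 Mb outside held 1. At the 16p end there were 55 Doxo regions inside and 4 outside. At the 12q end the density ran on, with 71 Doxo, 44 diMe-Doxo and 34 Acla regions inside and 69, 24 and 16 outside. At the 17q start there were 39, 18 and 23 inside and 22, 21 and 24 outside. The lists themselves end at a log2 fold of 1.5, and the lowest folds among members in the authors' deposited table were 1.51 (Doxo), 1.60 (diMe-Doxo) and 1.51 (Acla).

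Control library 2 held more reads per member than per region of the remainder in each band, while control library 1 varied by band. Mean reads per member were 2.90 in control library 1 and 6.45 in control library 2, against 2.88 and 3.32 in the remainder of the 4 chromosomes. The near-equal means of library 1 pool unlike bands, with 4.08 in 11q against 3.12 in the remainder of its chromosome, 4.01 against 2.84 for 12q, 2.29 against 2.89 for 16p and 2.28 against 2.19 for 17q. For library 2 they were 8.01 against 3.16 for 11q, 5.64 against 2.71 for 12q, 7.77 against 4.17 for 16p and 5.27 against 3.72 for 17q. Medians over the 4 bands were 1 and 3 reads, against 1 and 1. A read count of 1 in each control library, the lowest value that the lists hold, was found at 14.7% of members and at 28.5% of the remainder. A control peak had been called in both control libraries at 8.22% of members, against 5.30%, and in neither at 80.6%, against 86.6%. Members gained with Doxo alone had more control reads, with means of 3.38 and 8.47, than those gained with all 3 drugs, with 2.16 and 3.16. The order was the same in the remainder, with 3.95 and 5.50 for Doxo alone and 2.48 and 2.37 for all 3 drugs. It is thus not particular to the bands.

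Control signal and the mix of drugs moved together. The regions were listed by their fold over these same control reads, so this is a description with no test. Over all listed regions the ratio of Doxo to diMe-Doxo regions also differed by control signal. It was 0.965 at the lowest control level and 2.65 with peaks in both control libraries. Where both control libraries had a peak, there were 141 Doxo and 19 diMe-Doxo members, a ratio of 7.42, against 2.81 in the remainder. In the 12q band this group held 25 Doxo members and no member of the other lists. In the 16p band its ratio was 3.44, below the 3.73 of the remainder of chromosome 16. Where 1 control library had a peak the pooled ratio was 3.18, against 1.80. In 17q it was 2.71 there, below the 3.97 of the remainder of chromosome 17. With no control peak but more than 1 read in a control library the pooled ratio was 3.19, against 1.45. At the lowest control level 255 members were left, of which 234 were in the Doxo list, 124 in the diMe-Doxo list and 138 in the Acla list. The ratio was then 1.89, against 1.08 in the remainder. Here the 12q band had a ratio of 3.08, 16p of 2.10, 11q of 1.91 and 17q of 1.65, which for 17q was below the 1.82 of the remainder of chromosome 17. The density of Doxo regions at this level was 1.78 times that of the remainder, that of diMe-Doxo regions 1.02 times and that of Acla regions 0.899 times.

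**Figure D3:**
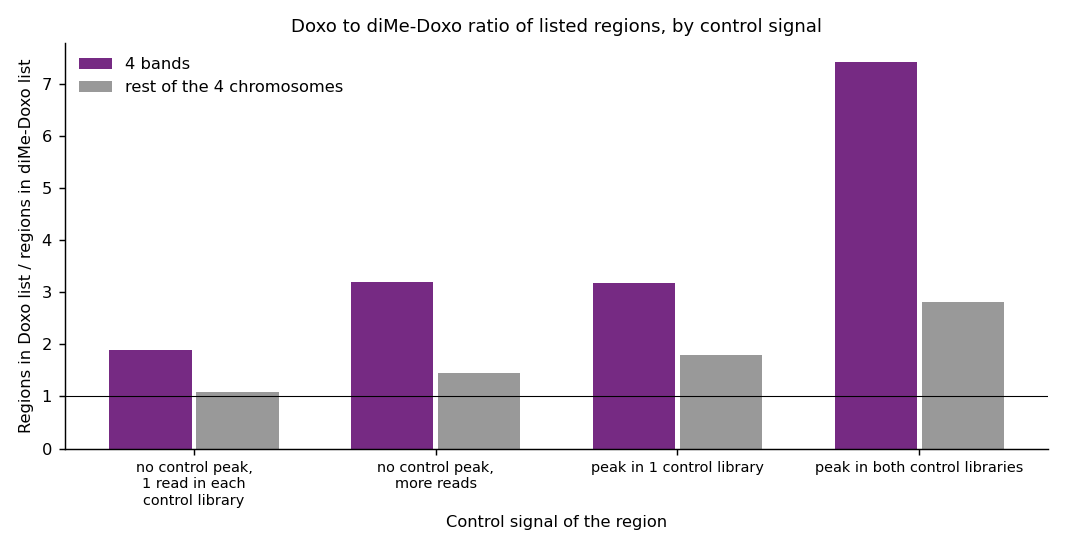
Number of regions in the Doxo list divided by the number in the diMe-Doxo list (vertical axis), by control signal (horizontal axis), for the 4 bands and for the remainder of the same chromosomes. Pooled over the 4 bands the ratio was higher at each control level, from 1.89 against 1.08 to 7.42 against 2.81. Against their own chromosomes some bands were lower. The 17q band was lower at the lowest level (1.65 against 1.82) and with 1 control peak (2.71 against 3.97). The 16p band was lower with peaks in both control libraries (3.44 against 3.73).

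The widths of members were close to those of other listed regions. Their median width was 700 bp, against 754 bp in the remainder. Members gained with Doxo alone had a median of 622 bp, against 589 bp, and those gained with all 3 drugs 917 bp, against 1011 bp.

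At regions gained with all 3 drugs the size of the gain can be set side by side. In the authors' deposited table the 440 such members had a median log2 fold over the control of 3.98 with Doxo, 2.59 with diMe-Doxo and 2.64 with Acla. In the remainder of the 4 chromosomes 3761 such regions had medians of 3.16, 2.80 and 2.90. The Doxo median was above that of the remainder of the same chromosome in each band, by 3.78 against 3.05 in 11q, 4.48 against 3.17 in 12q, 4.00 against 3.25 in 16p and 3.93 against 3.44 in 17q. The diMe-Doxo and Acla medians were below it in 11q, 12q and 16p, but not in the 17q band, which holds 221 of the 440 members. There diMe-Doxo stood at 2.66 against 2.61 and Acla at 2.78 against 2.73. The 3 folds share their control libraries. Median Doxo reads per member were 75.5 and 76 in the 2 libraries, against 36 and 36 in the remainder. Median diMe-Doxo reads were 73 and 60, against 75 and 61, and median Acla reads 91 and 106, against 113 and 99. Pooled over the bands, Doxo reads per region were thus about doubled and diMe-Doxo reads about the same. Acla reads were fewer in library 1 and more in library 2, as in 11q and 16p against their own chromosomes. In 12q Acla reads were fewer in both, at 94 and 92 against 115 and 96. In 17q they were more in both, at 90 and 103 against 82 and 86. Doxo reads rose most in 12q, at 108 and 115 against 32 and 32. They rose least in 17q, at 62 and 63 against 43 and 41. Median diMe-Doxo reads were higher in 12q, 16p and 17q and lower in 11q.

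The same regions give a share of reads that needs no scaling between libraries. The 440 members are 1.53% of the 28735 regions on all 3 lists. They took 2.67% and 2.62% of the Doxo reads at those regions, 1.34% and 1.33% of the diMe-Doxo reads, 1.10% and 1.49% of the Acla reads, and 1.25% and 2.12% of the control reads. Both Doxo libraries lay above all other libraries, control library 2 was next, and the other drug libraries lay below the share of regions. The mean Doxo share exceeded the mean diMe-Doxo share by 1.30 percentage points, a ratio of 1.97, and the mean Acla share by 1.35 points, a ratio of 2.04. The mean diMe-Doxo share exceeded that of Acla by 0.0419 points. With 2 libraries against 2, the two-sided exact permutation p was 0.333 for both comparisons of Doxo, the smallest it can give, and 1 for diMe-Doxo against Acla. Doxo exceeded diMe-Doxo in each band, by a ratio of 2.09 in 11q, 2.39 in 12q, 2.26 in 16p and 1.68 in 17q. At the lowest control level the Doxo share exceeded the diMe-Doxo share by 1.14 points.

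**Figure D4:**
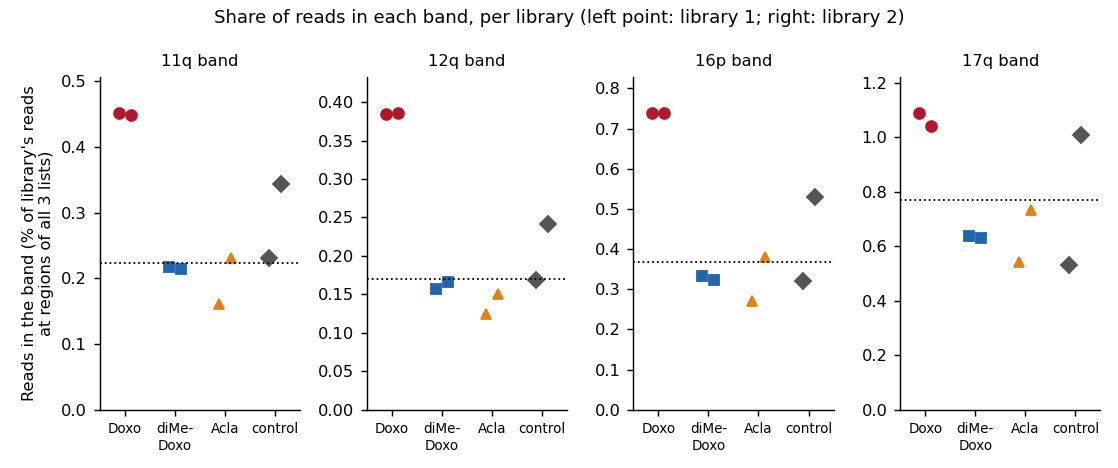
Share of each library's reads that lay in a band (vertical axis, percent of the library's reads at regions of all 3 lists), for Doxo, diMe-Doxo, Acla and control libraries. The dotted line is the share of those regions that lie in the band. The 2 Doxo libraries were the highest in all 4 bands, and control library 2 exceeded control library 1 in each.

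Drug was then set against drug by edgeR's quasi-likelihood test on reads recovered from the authors' signal, over all regions that both lists share, with Benjamini-Hochberg adjustment over all of them and a call at an adjusted p of 0.05. The bands had been picked knowing that Doxo regions prevail in them, so the counts for members describe the bands and are no independent test of them. Scaling used the authors' factors, by which 1 Doxo read weighs 0.503 and 0.498 in the 2 libraries, 1 diMe-Doxo read 0.202 and 0.208 and 1 Acla read 0.142 and 0.146, where 1 is a typical control read. Of 472 members on both the Doxo and the diMe-Doxo list, both at 10 µM, 298 were higher with Doxo and 3 lower, in edgeR's test. Over all 33140 shared regions 28.9% were called higher and 2.72% lower, while 63.1% of the members were called higher. The median log2 difference, Doxo minus diMe-Doxo, was 1.50 at members, 0.34 in the remainder of the 4 chromosomes and 0.28 over all shared regions. By band, 44 of 67 members were higher with Doxo in 11q, 50 of 61 in 12q, 74 of 113 in 16p and 130 of 231 in 17q. Median differences were 1.40, 1.93, 1.86 and 1.04, so the 17q band was the lowest and its quartiles, 0.19 and 2.22, were far apart. The remainder, here and in the comparisons below, pools unlike chromosomes. At regions on all 3 lists outside the bands, median log2 folds of Doxo and diMe-Doxo over the control were 3.445 and 2.61 on chromosome 17. On chromosome 11 they were 3.05 and 2.86. The 17q band thus stood less far from its own chromosome than from the pooled remainder, with 3.93 and 2.66. With TMM factors, which put the median of all shared regions at -0.05, 275 members were higher and 16 lower, against 23.6% and 10.6% of all shared regions.

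Shared regions were also summed over windows of 1 Mb, which hold more reads each. Of 23 band windows with at least 5 shared regions, 22 were higher with Doxo than with diMe-Doxo in edgeR's test and 0 were lower. Over all 2110 windows tested, 54.5% were higher and 0% lower. At an unadjusted p of 0.05 the band windows lower with Doxo were also 0, and DESeq2 called 1. The median log2 difference was 1.88 in the bands, against 0.64 in the remainder. The highest values were 2.40 ± 0.22 (SE) at 65.5 to 66.5 Mb of chromosome 11 and 2.36 ± 0.23 at 121 to 122 Mb of chromosome 12. The window at 122 to 123 Mb of chromosome 12 had too few shared regions to be tested. With TMM factors 21 windows were higher and 1 lower, against 38.9% and 40.6% of all windows.

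**Figure D5:**
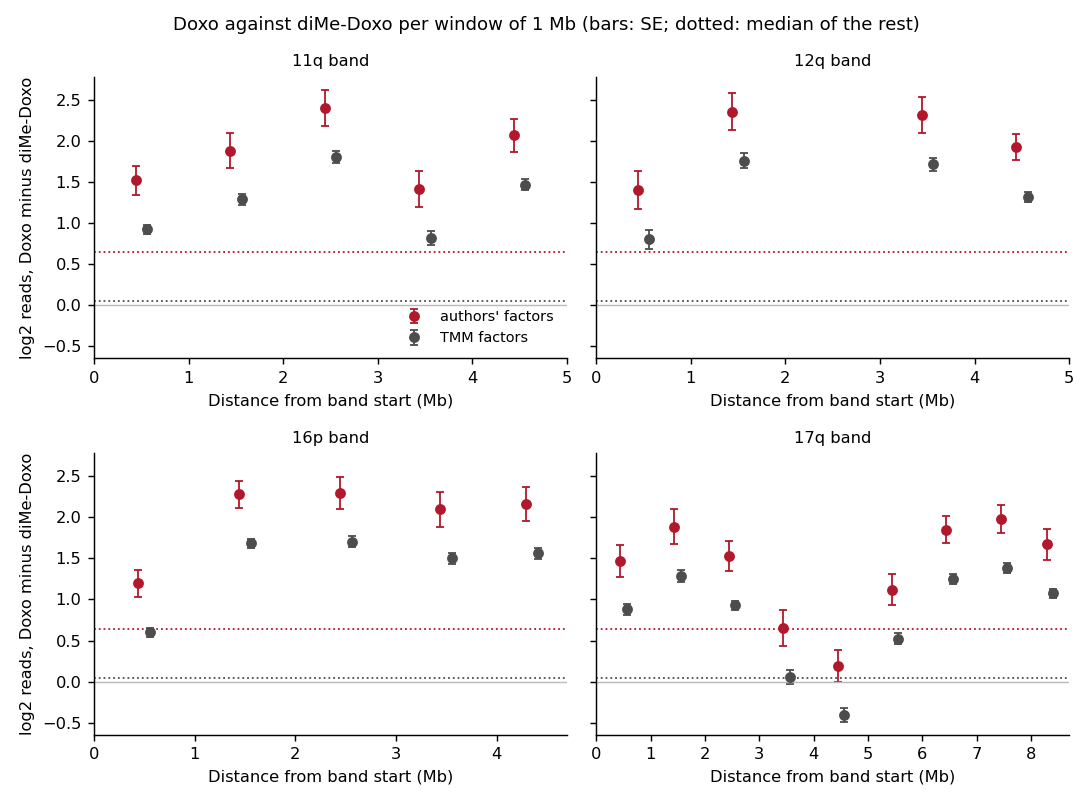
Log2 difference in reads, Doxo minus diMe-Doxo (vertical axis), in windows of 1 Mb along each band (horizontal axis, distance from the band's start), with the authors' factors and with TMM factors. Points are edgeR estimates, bars are standard errors and dotted lines are the medians of windows in the remainder of the 4 chromosomes. In 17q the difference was 0.19 in the window at 4 to 5 Mb from the band's start, while 8 other windows of that band were higher with Doxo with the authors' factors.

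The exception was the window at 76.5 to 77.5 Mb of chromosome 17. Its 39 shared regions had 1341 and 1140 Doxo reads, against 2956 and 2363 diMe-Doxo reads, a log2 difference of 0.19 ± 0.19 (SE, edgeR adjusted p = 0.436) on the authors' scale. The range of 2 SE about it ran from -0.19 to 0.57. With TMM factors it was -0.40 and called lower with Doxo (edgeR adjusted p = 0.000983). The window before it, at 75.5 to 76.5 Mb, had a difference of 0.65 ± 0.22 (edgeR adjusted p = 0.00665) with the authors' factors and 0.06 ± 0.08 (edgeR adjusted p = 0.523) with TMM factors. Of the 3 members lower with Doxo than with diMe-Doxo, named here after their values were seen, 1 lies in the exceptional window. At chr17:77282724-77284748 there were 34 and 20 Doxo reads, against 129 and 105 diMe-Doxo reads (log2 difference -0.82 ± 0.33, edgeR adjusted p = 0.0397). It was also the single member lower with Doxo than with Acla, with 34 and 20 Doxo reads against 183 and 210 Acla reads (log2 difference -1.06 ± 0.34, edgeR adjusted p = 0.00567). The other 2 lie in the first window of 16p, at chr16:904134-905536 (-0.69 ± 0.27) and chr16:1122406-1123549 (-0.86 ± 0.30).

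Acla was given at 20 µM, so its values stand beside those of the other drugs at an unequal dose. Of 554 members on the Doxo and Acla lists, 361 were higher with Doxo and 1 lower in edgeR's test, where 26.6% and 11.3% of all 32787 shared regions were called. The median log2 difference was 1.52 at members and 0.20 in the remainder. By window, 21 of 22 were higher with Doxo and 0 lower, with the same counts at an unadjusted p of 0.05, and with DESeq2 20 were higher and 0 lower. In edgeR's test 45.9% and 13.3% of all 2132 windows were called higher and lower. The exception was again at 76.5 to 77.5 Mb of chromosome 17 (0.13 ± 0.15, edgeR adjusted p = 0.455). With TMM factors the members were 348 and 8 and the windows 20 and 0, against 23.5% and 18.7% of all shared regions and 37.2% and 39.2% of all windows. Between diMe-Doxo and Acla little was called. Of 489 members on both lists, 0 were higher with diMe-Doxo and 2 lower, against 0.846% and 5.56% of 43402 shared regions. At an unadjusted p of 0.05 the counts were 8 and 17, and DESeq2 called 2 and 1. Shares over all shared regions are not given for those settings, so the counts are not read as few or many. With TMM factors 14 were higher and 6 lower, against 6.64% and 8.32%. The 2 lower members, named after their values were seen, are chr17:74622131-74623812 (-1.16 ± 0.31) and chr17:78831678-78832896 (-0.98 ± 0.33). Of 21 band windows 0 were called in either direction in edgeR's test, against 0% and 0% of all 2215 windows, and 0 were called at an unadjusted p of 0.05. With TMM factors 0 of the 21 were called as well, against 16.3% of all windows higher and 15.9% lower with diMe-Doxo. DESeq2 called 1 of the 21 higher with diMe-Doxo. With the authors' factors their log2 differences ran from -0.33 to 0.19, and the ranges of 2 SE about them reached from -0.88 to 0.70, so differences of that size between diMe-Doxo and Acla could not be told at this spread.

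Single members differed widely among themselves. They were named by a rule, for each band the lowest FDR per list, the widest region, the lowest adjusted p of Doxo against diMe-Doxo and the most control reads. The member with the lowest FDR in the authors' Doxo list within any band was chr16:3777956-3781621, which is 3665 bp wide. It had 615 and 703 Doxo reads, 142 and 93 diMe-Doxo reads and 244 and 268 Acla reads, against 5 and 6 control reads. All drug libraries lay far above the controls. In the authors' deposited table its log2 folds over the control were 5.91 for Doxo (FDR 6.16e-11), 2.13 for diMe-Doxo (FDR 0.00939) and 2.75 for Acla (FDR 0.000499). Doxo exceeded diMe-Doxo by 3.77 ± 0.23 on the log2 scale (SE, edgeR adjusted p = 6.63e-58). Elsewhere in the same band, chr16:2986253-2988401 had the lowest FDR in the band's diMe-Doxo and Acla lists. It held 290 and 323 Doxo reads, 170 and 123 diMe-Doxo reads and 178 and 242 Acla reads, against 2 and 1 control reads, and Doxo exceeded diMe-Doxo by 2.35 ± 0.22.

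In the 11q band the member with the lowest adjusted p of Doxo against diMe-Doxo was chr11:63530054-63533142, which is also the member nearest to the band's start. It held 845 and 871 Doxo reads, 292 and 213 diMe-Doxo reads and 219 and 350 Acla reads, against 16 and 1 control reads. Doxo exceeded diMe-Doxo by 3.05 ± 0.22 (edgeR adjusted p = 3.88e-43), while the 2 control libraries differed. The member with the highest Doxo fold in the authors' deposited table, chr11:66474591-66475907 (log2 fold 6.70, FDR 2.74e-09), had 195 and 220 Doxo reads, 60 and 29 diMe-Doxo reads and 81 and 77 Acla reads, against 1 and 1 control reads. Within the first Mb of the band, chr11:64365595-64366895 behaved otherwise. It led the band's Acla list, with 77 and 71 Doxo reads, 173 and 113 diMe-Doxo reads and 233 and 241 Acla reads, against 3 and 2 control reads, and Doxo differed from diMe-Doxo by 0.34 ± 0.26 (edgeR adjusted p = 0.366).

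In the 12q band chr12:124810200-124811968 led all 3 lists. It had 361 and 360 Doxo reads, 201 and 206 diMe-Doxo reads and 256 and 279 Acla reads, against 3 and 4 control reads, with log2 folds of 5.69, 3.59 and 3.47 in the authors' deposited table. The widest member of the band, chr12:121174913-121178351, was listed for Doxo alone, with 788 and 808 Doxo reads against 32 and 12 control reads and a peak in both control libraries. The member with the most control reads, chr12:123343551-123345607, was also listed for Doxo alone and had 421 and 457 Doxo reads against 58 and 83 control reads, a log2 fold of 1.64 in the authors' deposited table. In each band the member with the most control reads was on the Doxo list only.

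In the 17q band the member that led the diMe-Doxo and Acla lists, chr17:74898469-74900783, had 125 and 96 Doxo reads, 244 and 167 diMe-Doxo reads and 291 and 315 Acla reads, against 2 and 1 control reads. Its log2 folds in the authors' deposited table were close, with Doxo at 5.20, diMe-Doxo at 4.76 and Acla at 4.82, and Doxo differed from diMe-Doxo by 0.39 ± 0.23 (edgeR adjusted p = 0.209). At chr17:79019415-79021324, in the window with the most members of the 4 bands, there were 463 and 479 Doxo reads, 149 and 105 diMe-Doxo reads and 191 and 197 Acla reads, against 1 and 6 control reads. There Doxo exceeded diMe-Doxo by 3.18 ± 0.22 (edgeR adjusted p = 1.15e-43). Regions with a gain of like size for all 3 drugs and regions with a several-fold larger gain for Doxo thus lay a few Mb apart in the same band.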

How the data were processed

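Per the submitters' processing notes, the build was GRCh37 and DiffBind was used. Aligner, peak caller, normalization and versions: not given in the sources used here. Without headers in the lists, the meaning of each column was inferred from its values. In the deposited lists the fold of drug over control is on a log2 scale, the p-value and false discovery rate (FDR) are the authors', the signal of each library is the authors' read count times 1 factor per library, and the authors also give in how many libraries they called a peak. Only gains with p up to 0.05 and log2 fold of at least 1.5 are listed. Coordinates are as deposited, and whether starts count from 0 or 1 is not stated.

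Each signal was divided by its library's smallest step to recover reads, which were whole to within 0.1 for 100% of values. No control value is under 1 read, which may stand for 0. Listed regions held 3534855 to 7266289 reads per treated library and 120492 to 253175 per control library within each list. Full depth is unknown, and the number of reads limits precision.

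The lists were joined by identical coordinates. Windows of 1 Mb tile the bands from their starts and, outside, run outward from the band edges, and the length of the remainder counts windows with a listed region. edgeR's quasi-likelihood test was run on recovered reads of both lists' shared regions, over the genome, and by window with at least 5 shared regions, with the authors' factors expressed relative to the shared control libraries. The test was tried on simulated data. For single shares the exact permutation test over libraries was used. Alternatives were TMM factors, DESeq2, a filter of 50 reads, leaving out each library, stricter limits, moved edges and covered bases. Named regions are, for each band, the 2 lowest FDRs of the Doxo list, the lowest of the diMe-Doxo and of the Acla list, the widest, the lowest adjusted p of Doxo against diMe-Doxo and the most control reads; not all are described. Gene lists prepared for the bands were not matched to regions, since no annotation of this build was used here. Only their outermost genes were used, for the counts by gene order. The members, bands and lists were chosen with earlier results of these data known. Software was edgeR 4.0.16 and DESeq2 1.42.0 in R 4.3.3, with pandas 2.3.3, scipy 1.17.1 and numpy 2.4.6 in Python 3.11.15.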

Additional observations from a re-analysis of the deposited data

How the results depend on the processing

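The lists hold only gained regions, and 2 libraries stand for each group. Summed over the members, control library 2 held 2.22 times the reads of control library 1, against 1.15 times in the remainder. Densities and drug shares thus rest on calls that could not be made again from these files. No paired analysis was possible because each group has 1 sample and its libraries carry no number that ties them across drugs. With stricter limits on the authors' values (FDR up to 0.01, log2 fold from 2), there were 1089 members, 1018 in the Doxo list, 219 in the diMe-Doxo list and 235 in the Acla list, and the Doxo to diMe-Doxo ratio was 4.65. At the lowest control level, a setting added after the data had been seen, the counts were 255, 234, 124 and 138, the ratio was 1.89, the density of Doxo regions was 1.78 times and of Acla regions 0.899 times that of the remainder, and mean control reads are 1 and 1 by construction. Moved edges, covered bases and whole regions inside the band left the density ratios within 1.5 times.

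Members higher with Doxo than with diMe-Doxo numbered 174 of 188 with at least 50 reads in every treated library, where fewer regions were tested, and 0 were lower. By the authors' factors 1 Doxo read weighs 0.503 and 0.498 and 1 diMe-Doxo read 0.202 and 0.208. The filter thus favours regions high with Doxo, and these counts are no support. The same applies to the filtered count against Acla below. Members lower with Doxo than with diMe-Doxo were 16 with TMM factors, 6 with DESeq2 and 0 to 10 when 1 library was left out, the 10 without Doxo replicate 1. Lower with Doxo than with Acla were 8 with TMM factors, 0 with the read filter and 0 to 5 when 1 library was left out, the 5 again without Doxo replicate 1. Higher with diMe-Doxo than with Acla were 14 with TMM factors, 2 with DESeq2 and 0 to 4 when 1 library was left out, the 4 without Acla replicate 2. Lower were 6, 1, 0 with the read filter, and 0 to 2. By window, 1 was lower with Doxo than with diMe-Doxo with TMM factors and 1 with DESeq2, and DESeq2 called 1 higher with diMe-Doxo than with Acla. The cause of these shifts was not tested. Shares over all regions or windows are given only for edgeR's adjusted calls with the authors' factors and with TMM factors. Counts at an unadjusted p, with DESeq2, with the read filter or with 1 library left out are therefore not read as few or many.

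Of the single members named, chr17:72945472-72948631 (0.70 higher with Doxo than with diMe-Doxo on the log2 scale) was no longer called with DESeq2, without Doxo replicate 1 or without Doxo replicate 2, and chr17:74898469-74900783 was called higher with Doxo only without diMe-Doxo replicate 1 (0.67).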
